A study of Caenorhabditis elegans with 9 samples.

Results

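P granules are RNA-protein condensates that sit on the nuclear pores of *C. elegans* germ cells, and messenger RNAs leaving the nucleus pass through them. Their scaffold is built from PGL proteins, and the Vasa-like GLH helicases and DEPS-1 are needed to form or hold them. Argonaute proteins that carry germline small RNAs work in and beside these granules, with PRG-1 bound to piRNAs, and EGO-1, an RNA-dependent RNA polymerase, making small RNAs for the Argonaute CSR-1. The genes described here were picked out of the table by sequence name, from a list drawn up with earlier results of these data known: 10 names were given, and 9 of them matched a row among the 43901 loci of the coverage table. They are *pgl-1* (ZK381.4), *glh-1* (T21G5.3), *glh-2* (C55B7.1), *glh-3* (B0414.6), *glh-4* (T12F5.3), *deps-1* (Y65B4BL.2), *csr-1* (F20D12.1), *prg-1* (D2030.6) and *ego-1* (F26A3.3). The name C18G9.3, given for *pgl-3*, matched no row. The annotation places *pgl-3* at C18G1.4, whose values are given beside the 9 genes and are left out of their counts and medians.

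RNA was sequenced from whole synchronized animals grown from arrested larvae for 53 h at 20 °C in liquid culture. By the study's account, young adults without embryos had accumulated in the cultures by then. The share of other stages is not given in the sources used here. Of the 9 libraries, 2 were labelled *emr-1(RNAi) lem-2(tm1582)*, which is the *lem-2(tm1582)* strain BN19 fed double-stranded RNA against *emr-1* (the double libraries), 2 were *emr-1(gk119)* (strain BN20), 2 were *lem-2(tm1582)* (strain BN19) and 3 were N2 wild type. EMR-1 (emerin) and LEM-2 are LEM-domain proteins of the inner nuclear membrane, and the comparisons ask how RNA levels differ when 1 or both are depleted. The strain given here for the double libraries is that of their labels, and the study's description of its RNAi also names BN19. Its count of RNA samples instead lists 2 of BN24 beside 2 of BN19, and this mismatch was not reconciled. The control food was bacteria making double-stranded RNA of unrelated plasmid sequence, and which libraries were fed it is not given in the sources used here. *emr-1* coverage was 0 and 1.5 in *emr-1(gk119)*, against 44.6 to 60.5 in wild type. In the double libraries it was 135 and 73.5, so it was not lower where *emr-1* was the RNAi target. The coverage of *lem-2* in *lem-2(tm1582)* (54 and 53.3) was not below wild type (29.3 to 39.0). In the double libraries, labelled as the same strain, *lem-2* coverage was 28.9 and 30.5, lower than in *lem-2(tm1582)*, and the reason was not tested. These values cover the whole locus, and the deleted part of *lem-2* was not looked at by itself. The study checked its RNAi by the death of embryos in the doubly depleted cultures, which is not part of these data. The labels were kept, and every direction given below for the double or the *lem-2(tm1582)* libraries rests on them.

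Values are normalized coverage, the typical number of reads over a base of the transcript, so that levels can be set side by side between genes. Changes were fitted with limma on log2(coverage + 1) over 19567 loci, as the first named group minus the second, and a locus was called at a Benjamini-Hochberg adjusted p under 0.05. Replicates are known only from the labels and may be technical, so p-values measure the spread between libraries of a group, which need not be that between cultures. All groups shared a single estimate of this spread for each locus. In whole animals, fewer germ cells and less RNA per germ cell cannot be told apart. In all of the loci tested, the median change of the double libraries against wild type was 0.35, and the changes of single genes can be read against it.

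The largest falls in the double libraries were those of *pgl-3*, *deps-1* and *pgl-1*. *pgl-1*, on chromosome IV from 6974441 to 6977318 (minus strand, WBcel235), encodes an RGG-box protein on which P granules assemble. Its coverage was 30.6 and 32.6 in the double, 52.5 and 68.2 in the *emr-1(gk119)*, 85.2 and 105 in the *lem-2(tm1582)* and 121, 119.1 and 87.9 in the wild-type libraries. Libraries of *emr-1(gk119)* and of the double group were all below wild type and did not overlap each other, while *lem-2(tm1582)* lay within the wild-type range or just under it. The change was -1.75 ± 0.20 (log2, SE) in the double libraries against wild type (limma, Benjamini-Hochberg adjusted p = 0.00134), and their mean of 31.6 ± 1.41 (SD, n = 2) was 28.9% of the wild-type mean of 109 ± 18.7 (SD, n = 3). In *emr-1(gk119)* the change was -0.85 ± 0.20 (limma, Benjamini-Hochberg adjusted p = 0.0303), or 55.1% of the wild-type mean. The table holds 2 transcripts of *pgl-1* with identical values, so they give no separate view of its isoforms.

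*pgl-3*, the paralog of *pgl-1* (C18G1.4, chromosome V from 4755979 to 4758587, plus strand), had the lowest remaining share of the 10 genes in the double libraries. It had a coverage of 17.2 and 18.4 in the double, 36.4 and 41.4 in the *emr-1(gk119)*, 70.0 and 92.0 in the *lem-2(tm1582)* and 103, 79.0 and 88.2 in the wild-type libraries. The 4 libraries of the double and *emr-1(gk119)* groups were all below the lowest wild-type library. It fell by 2.27 (SE 0.18) on the log2 scale in the double libraries, to 19.7% of the wild-type mean (limma, Benjamini-Hochberg adjusted p = 6.17e-04), and fell by 1.19 (SE 0.18) in *emr-1(gk119)*, to 43.1% (limma, Benjamini-Hochberg adjusted p = 0.00729). Within the pair, *pgl-3* had 0.562 and 0.563 times the coverage of *pgl-1* in the double, 0.693 and 0.608 times in the *emr-1(gk119)*, 0.821 and 0.875 times in the *lem-2(tm1582)* and 0.851, 0.664 and 1.00 times in the wild-type libraries. The ratio was thus lower in both double libraries than in any wild-type library, a description that was picked after the values were seen.

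*deps-1* encodes a P granule protein required for PGL proteins to assemble and for normal *glh-1* RNA. It lies on chromosome I from 506473 to 509056, where 109 of its 2044 exon bases overlap Y65B4BL.7 on the other strand. Its coverage was 14.8 and 16.6 in the double, 31.6 and 30.1 in the *emr-1(gk119)*, 52.2 and 55.9 in the *lem-2(tm1582)* and 69.3, 63.0 and 57.8 in the wild-type libraries. The 4 groups did not overlap, and *lem-2(tm1582)* was nearest to wild type. *deps-1* fell by 1.94 (SE 0.14) in the double libraries, to 24.8% of the wild-type mean (limma, Benjamini-Hochberg adjusted p = 5.48e-04), and fell by 1.01 (SE 0.14) in *emr-1(gk119)*, to 48.7% (limma, Benjamini-Hochberg adjusted p = 0.00606). The *lem-2(tm1582)* change was -0.22 with a 95% confidence interval from -0.56 to 0.11, and was not called.

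**Figure D1:**
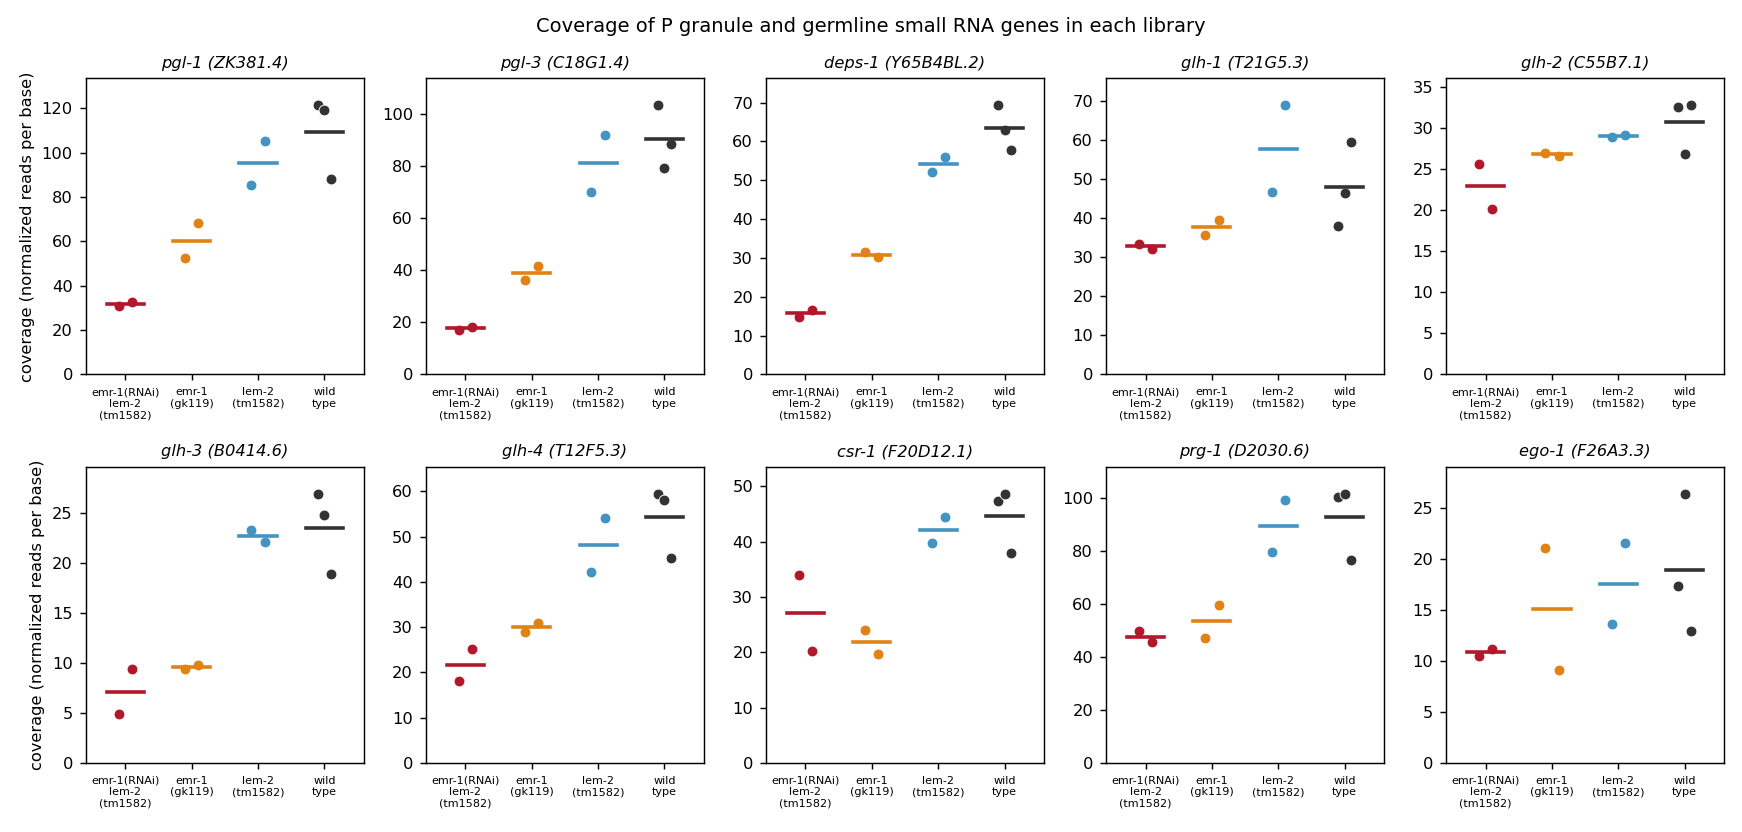
Normalized coverage (reads per base, linear axis from 0) of each gene in every library, with the double libraries at the left and wild type at the right of each panel. Points are libraries and bars are group means. In all 10 panels both double libraries lie below every wild-type library, and the gap is widest for pgl-1, pgl-3 and deps-1.

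Of the 4 GLH helicases, DEAD-box proteins related to Vasa, 2 were called lower in the double libraries. *glh-3* had 4.94 and 9.39 in the double, 9.44 and 9.78 in the *emr-1(gk119)*, 23.4 and 22.2 in the *lem-2(tm1582)* and 26.9, 24.9 and 18.9 in the wild-type libraries. *glh-4* had 18.1 and 25.2 in the double, 29.0 and 31.0 in the *emr-1(gk119)*, 42.2 and 54.1 in the *lem-2(tm1582)* and 59.4, 58.1 and 45.3 in the wild-type libraries. Both were below all wild-type libraries in the double and *emr-1(gk119)* groups. Against wild type, *glh-3* fell by 1.63 (SE 0.27; limma, Benjamini-Hochberg adjusted p = 0.00409) and *glh-4* fell by 1.30 (SE 0.21; limma, Benjamini-Hochberg adjusted p = 0.00370) in the double libraries. With *emr-1(gk119)* their changes were -1.20 (SE 0.27; limma, Benjamini-Hochberg adjusted p = 0.0263) and -0.83 (SE 0.21; limma, Benjamini-Hochberg adjusted p = 0.0377).

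*glh-1*, the main Vasa homolog of the worm, had 33.4 and 32.1 in the double, 35.7 and 39.5 in the *emr-1(gk119)*, 46.7 and 68.8 in the *lem-2(tm1582)* and 38, 46.4 and 59.5 in the wild-type libraries. *glh-2* had 25.6 and 20.2 in the double, 26.9 and 26.6 in the *emr-1(gk119)*, 28.8 and 29.2 in the *lem-2(tm1582)* and 32.5, 26.8 and 32.7 in the wild-type libraries. For both genes the double libraries were below wild type by a small margin, and *emr-1(gk119)* overlapped wild type. Neither was called. The *glh-1* change in the double libraries was -0.51 with a 95% confidence interval from -1.06 to 0.04 (limma, Benjamini-Hochberg adjusted p = 0.122), and that of *glh-2* was -0.41 with an interval from -0.81 to -0.01 (limma, Benjamini-Hochberg adjusted p = 0.0931). With quantile normalization repeated on transcripts, *glh-2* was called, at -0.64 (limma, Benjamini-Hochberg adjusted p = 0.0338). *glh-1* and *glh-2* are close paralogs, and how reads that match both were placed is not given in the sources used here, so the split between them is uncertain.

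All 4 *glh* genes are on chromosome I at separate places. *glh-4* starts at 3727027, *glh-3* at 5792321, *glh-2* at 6513928 and *glh-1* at 6854478. With *deps-1*, *prg-1* and *ego-1*, 7 of the 10 genes described are on this chromosome, called and uncalled ones alike. Compared within a library, *pgl-1* had 0.915 and 1.02 times the coverage of *glh-1* in the double, 1.47 and 1.73 times in the *emr-1(gk119)*, 1.83 and 1.53 times in the *lem-2(tm1582)* and 3.19, 2.56 and 1.48 times in the wild-type libraries. The wild-type libraries spread widely here, and the double libraries were below all of them. This ratio too was picked after the values were seen, of a called gene to an uncalled one, so it adds no separate evidence.

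*prg-1*, the Piwi Argonaute that binds piRNAs (chromosome I from 7585329 to 7588367), was at a similar level in the double and *emr-1(gk119)* groups. Its coverage was 49.7 and 45.7 in the double, 47.2 and 59.6 in the *emr-1(gk119)*, 79.5 and 99.2 in the *lem-2(tm1582)* and 100.2, 101 and 76.4 in the wild-type libraries. It fell by 0.93 (SE 0.19) in the double libraries, to 51.4% of the wild-type mean (limma, Benjamini-Hochberg adjusted p = 0.00833), and fell by 0.78 (SE 0.19) in *emr-1(gk119)* (limma, Benjamini-Hochberg adjusted p = 0.0330). Double and *emr-1(gk119)* libraries overlapped, with a difference of -0.15 and a 95% confidence interval from -0.64 to 0.34. The split of reads between *prg-1* and its close paralog *prg-2* is uncertain. *prg-2* had a wild-type mean of 97.9 and changed by -0.09 in *emr-1(gk119)*, which was not called.

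*csr-1*, an Argonaute that targets germline-expressed genes (chromosome IV from 7957267 to 7962157), had 34.0 and 20.3 in the double, 24.0 and 19.6 in the *emr-1(gk119)*, 39.8 and 44.4 in the *lem-2(tm1582)* and 47.4, 48.6 and 38 in the wild-type libraries. The double libraries differed from each other more than for most of the genes, and *emr-1(gk119)* had the lower mean. *csr-1* fell by 1.0 (SE 0.24) in *emr-1(gk119)* (limma, Benjamini-Hochberg adjusted p = 0.0316) and fell by 0.73 (SE 0.24) in the double libraries (limma, Benjamini-Hochberg adjusted p = 0.0464). The call in the double libraries was kept in 6 of 16 alternatives, in which the change ran from -1.09 to -0.38. It was lost without double replicate 2, wild-type replicate 1 or wild-type replicate 2. It was lost as well with a pseudocount of 0.1, with no coverage minimum, or with the highest transcript of the locus. Using only the compared groups, no trend, a replicate block or no log scale also lost it. The call of *csr-1* in *emr-1(gk119)* was kept in 8 of 16 alternatives. *csr-1* shares 438 exon bases with *frpr-10* on the same strand, and reads in that stretch cannot be assigned to 1 of the genes.

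*ego-1*, the RNA-dependent RNA polymerase (chromosome I from 7650341 to 7656338), had the largest standard error of the 10 genes. It had 10.5 and 11.2 in the double, 21.1 and 9.11 in the *emr-1(gk119)*, 13.6 and 21.6 in the *lem-2(tm1582)* and 17.3, 26.4 and 13 in the wild-type libraries. The double libraries were the only group below all of wild type. The change was -0.69 in the double libraries, with a 95% confidence interval from -1.65 to 0.27 (limma, Benjamini-Hochberg adjusted p = 0.219), and -0.36 in *emr-1(gk119)*, with an interval from -1.32 to 0.60 (limma, Benjamini-Hochberg adjusted p = 0.606). A change of the size seen for *prg-1* lay inside both intervals. Repeated quantile normalization gave -1.11 in the double libraries, which was called (limma, Benjamini-Hochberg adjusted p = 0.0398).

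By count, 6 of the 9 genes were called lower when the double libraries were set against wild type, and 0 higher, where 12% of all loci were called lower and 26.4% higher. These were 2354 loci lower and 5164 higher, a split that became 3349 and 3369 after a second quantile normalization, over transcripts, and 8 of the 9 genes were then called lower. Both double libraries were below all wild-type libraries for 9 of 9 genes, which was the case for 19.2% of all loci. The median change was -0.93, against 0.35 over all loci. Without double replicate 2, *csr-1* and *prg-1* lost their calls and 4 were left, and without wild-type replicate 1 or wild-type replicate 2 only *csr-1* lost its call. *pgl-1*, *pgl-3*, *deps-1*, *glh-3* and *glh-4* were called in all 16 alternatives.

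In *emr-1(gk119)* against wild type, 6 of 9 genes were called lower and 0 higher, where 6.27% of all loci were called lower and 10.3% higher. Both libraries were below all of wild type for the same 6 genes, against 19.5% of all loci, and the median change was -0.83 against 0.01 over all loci. These calls were less stable. With *emr-1(gk119)* replicate 1, wild-type replicate 1 or wild-type replicate 2 left out, 1 call remained, that of *deps-1*, and without *emr-1(gk119)* replicate 2 those of *pgl-1* and *deps-1* remained, 2 in all. *pgl-3* was called in each of these fits.

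In *lem-2(tm1582)* against wild type, limma called 0 of 9 genes. Of the 9, 0 had an unadjusted p under 0.05, where 3064 of the 19567 loci had. Of all loci, 0.0102% were called lower. The changes ran from -0.22 for *deps-1* to 0.26 for *glh-1*, and both *lem-2(tm1582)* libraries were below all of wild type for 1 gene, *deps-1*, against 12% of all loci. The 95% confidence intervals reached -0.66 for *pgl-1*, -0.67 for *glh-3* and -1.04 for *ego-1*, so falls up to these sizes lay inside the intervals. *lem-2(tm1582)* replicate 2 had higher coverage than replicate 1 for 9 of the 10 genes, all but *glh-3*.

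**Figure D2:**
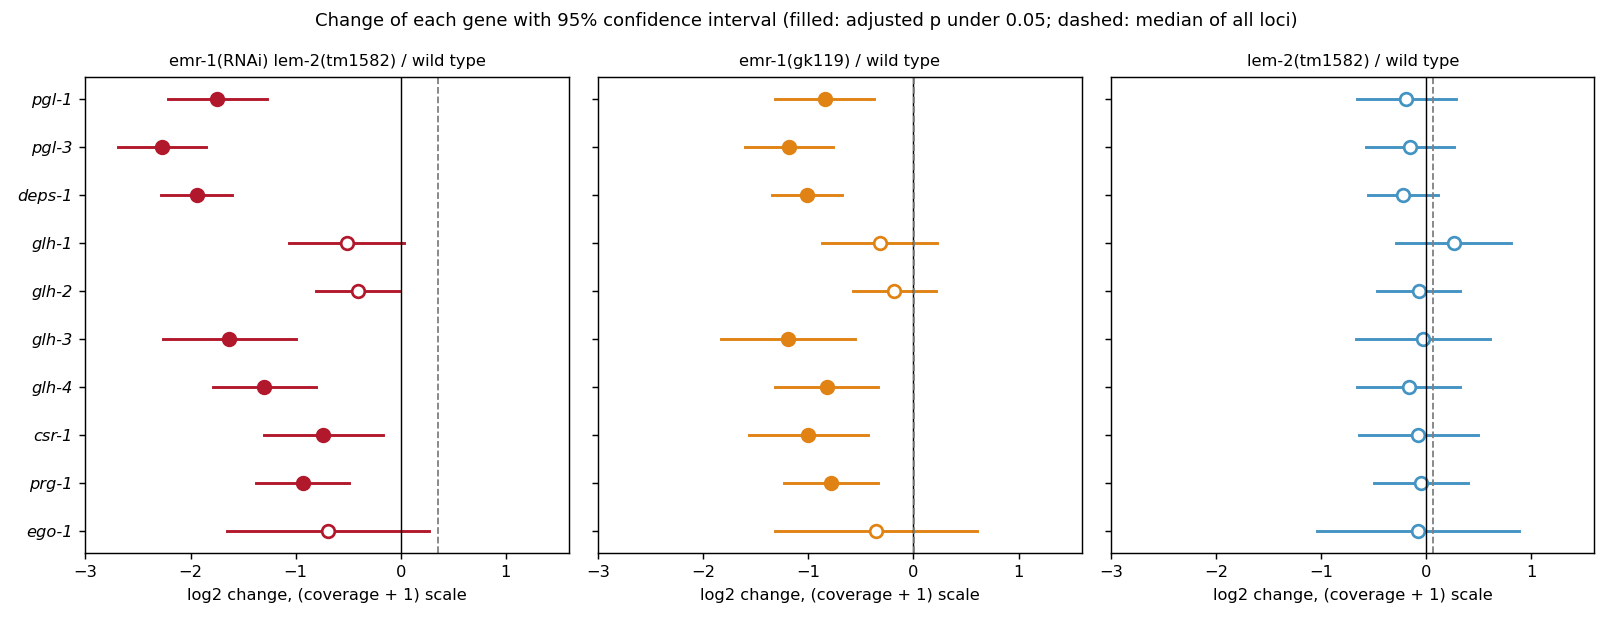
Change of each gene on the log2(coverage + 1) scale, with 95% confidence intervals from limma, in the libraries of the double, the emr-1(gk119) and the lem-2(tm1582) groups, each against wild type. Filled circles have a Benjamini-Hochberg adjusted p under 0.05 and dashed lines are the median of all loci (0.35, 0.01 and 0.06). Changes run from -2.27 for pgl-3 to -0.41 for glh-2 in the double libraries and stay near 0 in lem-2(tm1582).

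The double libraries were also set against each single mutant. By the labels, the *lem-2(tm1582)* allele is shared by both sides of the comparison with *lem-2(tm1582)*. In that comparison 5 of 9 genes were called lower, where 6.27% of all loci were. Of all loci 1227 were called lower and 1994 higher, and 1838 and 1533 after repeated quantile normalization. The 5 genes were *deps-1* (-1.72), *glh-3* (-1.60), *pgl-1* (-1.55), *glh-4* (-1.13) and *prg-1* (-0.88), and *pgl-3* had -2.11. Without double replicate 1 or *lem-2(tm1582)* replicate 2, 0 of these calls remained by limma. Without *lem-2(tm1582)* replicate 1, 2 calls remained, and without double replicate 2 there were 4.

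Against *emr-1(gk119)*, 2 of 9 genes were called lower in the double libraries, where 2.53% of all loci were. Of all loci 495 were called lower and 1396 higher, and 935 and 1052 after repeated quantile normalization. *deps-1* changed by -0.93 (SE 0.16; limma, Benjamini-Hochberg adjusted p = 0.0192) and *pgl-1* by -0.90 (SE 0.22; limma, Benjamini-Hochberg adjusted p = 0.0468), and *pgl-3* changed by -1.08 (SE 0.20; limma, Benjamini-Hochberg adjusted p = 0.0235). *csr-1* was 0.27 higher, with a 95% confidence interval from -0.35 to 0.88. With either double library or *emr-1(gk119)* replicate 2 left out, 0 calls remained among the 9 genes, and without *emr-1(gk119)* replicate 1 the call of *deps-1* remained. *pgl-3* was called in 9 of 15 alternatives, and lost its call without either double library or *emr-1(gk119)* replicate 2, with the replicate block, with only the compared groups in the fit and without the log scale (adjusted p from 0.0100 to 0.207 over the alternatives).

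An interaction term took the change of *emr-1(gk119)* against wild type away from the change of the double libraries against *lem-2(tm1582)*. Limma called 0 of 9 genes, where 0.184% of all loci were called lower. Of the 9, 2 had an unadjusted limma p under 0.05, as had 3710 of the 19567 loci. The term was -0.71 for *deps-1* (95% confidence interval from -1.21 to -0.21) and -0.71 for *pgl-1* (-1.40 to -0.01), with Benjamini-Hochberg adjusted p of 0.149 and 0.258 from limma. *pgl-3* had -0.93 (-1.55 to -0.30; limma, Benjamini-Hochberg adjusted p = 0.139). A difference between the 2 changes was therefore not shown for any of the 10. The term sets RNAi of *emr-1* in *lem-2(tm1582)* against a deletion of *emr-1* in an otherwise wild-type strain, so method and background cannot be told apart in it.

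The order of levels differed between groups. By mean coverage in the double libraries it was *prg-1* (47.7), *glh-1* (32.8), *pgl-1* (31.6), *csr-1* (27.1), *glh-2* (22.9), *glh-4* (21.6), *pgl-3* (17.8), *deps-1* (15.7), *ego-1* (10.9) and *glh-3* (7.17). In wild type it was *pgl-1* (109), *prg-1* (92.7), *pgl-3* (90.1), *deps-1* (63.4), *glh-4* (54.3), *glh-1* (48.0), *csr-1* (44.7), *glh-2* (30.7), *glh-3* (23.6) and *ego-1* (18.9). From *glh-1* down to *pgl-3* in the double libraries, the ranges of neighbours overlapped, and so did those from *pgl-1* to *pgl-3*, from *deps-1* to *csr-1* and from *glh-2* to *ego-1* in wild type. By mean coverage *pgl-3* and *deps-1* stood below *glh-4* and *glh-1* in the double libraries, and above both in wild type, although *deps-1* had 0.971 times the coverage of *glh-1* in wild-type replicate 3. For *emr-1(gk119)* the order began with *pgl-1* (60.3) and *prg-1* (53.4), whose ranges overlapped, and ended with *glh-3* (9.61). In *lem-2(tm1582)* it began with *pgl-1* (95.2) and *prg-1* (89.4) and ended with *ego-1* (17.6).

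The wild-type libraries were not alike for these genes. Replicate 3 had the lowest wild-type coverage for 7 of the 10 genes, *pgl-1*, *glh-3*, *glh-4*, *deps-1*, *csr-1*, *prg-1* and *ego-1*, and the highest for *glh-1* and *glh-2*. Leaving it out took away none of the 6 calls in the double libraries and none of the 6 in *emr-1(gk119)*. Across all loci of higher coverage, the median absolute log2 difference between replicates was 0.21 in the double, 0.38 in the *emr-1(gk119)*, 0.19 in the *lem-2(tm1582)* and 0.20 to 0.31 in the wild-type libraries.

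Over the 9 libraries, the profile of *deps-1* was closest to the mean of the other 9 genes (r = 0.979), and *glh-4* (0.973), *pgl-3* (0.972) and *pgl-1* (0.967) were close behind. *glh-1* (0.703) and *ego-1* (0.604) were the farthest. These values describe 9 libraries in 4 groups and carry no test. Among the other 8101 loci of higher coverage, those most like the mean of the 10 genes were Y87G2A.1 (r = 0.998), K10C3.4 (0.991), F10E7.11 (0.990), *tag-266* (0.988) and *cgh-1* (0.987). *cgh-1*, a DEAD-box helicase of germline RNA granules, had 138 and 136 in the double, 206 and 242 in the *emr-1(gk119)*, 493 and 609 in the *lem-2(tm1582)* and 706, 866 and 611 in the wild-type libraries.

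Other genes of P granules and of small RNA pathways were taken from lists by their known roles. Their counts are read against the 12% of all loci called lower in the double libraries and the 6.27% in *emr-1(gk119)*. Of 13 further P granule genes, 11 were called lower in the double libraries and 0 higher, with a median change of -1.68 (0.35 over all loci), and in *emr-1(gk119)* 8 were called lower, with a median of -1.0 (0.01 over all loci). *mip-2*, one of a pair of LOTUS-domain proteins that hold GLH-1 in the granule, had 14.8 and 17.8 in the double, 37.3 and 45.8 in the *emr-1(gk119)*, 60.7 and 70.9 in the *lem-2(tm1582)* and 91.5, 86.4 and 93.9 in the wild-type libraries. In the double libraries it changed by -2.41, its partner *mip-1* by -1.58, *cgh-1* by -2.39 and *meg-4*, a disordered protein of embryonic P granules, by -2.21. *pgl-2*, the other *pgl* gene, was not called, at -0.59 (limma, Benjamini-Hochberg adjusted p = 0.280). *znfx-1*, a helicase of the adjoining Z granules, had -0.38 (limma, Benjamini-Hochberg adjusted p = 0.269).

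Of 15 further Argonaute genes, 8 were called lower in the double libraries (12% of all loci) and 0 higher (26.4%), with a median of -0.72. Among the 8 was *prg-2* (-1.02), which is annotated as a pseudogene and is a close paralog of *prg-1*, so the split of reads between them is uncertain. *wago-1*, a germline Argonaute of secondary small RNAs, had 63.1 and 60.9 in the double, 117 and 125 in the *emr-1(gk119)*, 183 and 215 in the *lem-2(tm1582)* and 249, 258 and 265 in the wild-type libraries. In the double libraries it changed by -2.03, *hrde-1*, a nuclear Argonaute of inherited silencing, by -1.78, *ergo-1* by -1.72 and *nrde-3*, a nuclear Argonaute of somatic cells, by -1.41. Others were near 0, such as *alg-1* of the microRNA pathway (0.09) and *rde-1* of the response to double-stranded RNA (-0.11). Of the other *alg* genes, *alg-2* (-0.97) and *alg-5* (-0.94) were called lower in the double libraries, while *alg-3* (0.33) and *alg-4* (-0.11) were not called. In *emr-1(gk119)* 5 were called lower and 1 higher, *alg-3*, an Argonaute of sperm formation (0.86; limma, Benjamini-Hochberg adjusted p = 0.0488). Without *emr-1(gk119)* replicate 1 there were 2 lower and 0 higher, and without replicate 2 there were 3 lower and 0 higher.

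Lists of the enzymes and partners that make and amplify small RNAs had medians between -0.99 and -0.34 in the double libraries. Of 6 RNA-dependent RNA polymerases and their partners, 1 was called lower in the double libraries, *rrf-3* (-0.85), a polymerase of the ERI pathway, and this call was lost without double replicate 1, double replicate 2, wild-type replicate 1 or wild-type replicate 2, which left 0. With all libraries, 1 of 6 is near the 12% of all loci called lower. *drh-3*, a helicase that works with EGO-1, had -0.65 and was not called, nor were *rrf-2* (0.51) and *drh-1* (-0.39). Of 8 genes of the Mutator complex, which amplifies small RNAs in foci beside P granules, 5 were called lower (median -0.80), with *mut-7*, an exonuclease, at -1.28, the nucleotidyltransferase *mut-2* at -1.08, the scaffold *mut-16* at -0.89 and *mut-14*, a helicase, at -0.76. Without double replicate 1 there was 1. Of 8 genes in the Dicer and ERI list, 5 were called lower (median -0.99). The list also holds *rde-10*, *rde-11* and *rde-12*, which are not parts of these complexes, and *rde-10* (-1.18) and *rde-11* (-0.87) were among the genes called. Others called were *eri-5* at -1.69, *eri-3* at -1.26 and *rde-4*, the double-stranded RNA-binding partner of Dicer, at -1.11. *dcr-1*, Dicer itself, was not called at -0.35. Of 10 piRNA biogenesis genes, 5 were called lower (median -0.90), with *tofu-6*, of a piRNA processing complex, at -1.90, *tofu-5* at -1.14, *tofu-1* at -0.97 and *snpc-4*, which binds piRNA gene promoters, at -0.86, and without double replicate 1 there were 3. Repeated quantile normalization gave 3 of 6 polymerases and partners and 8 of 10 piRNA biogenesis genes called lower in this comparison. In *emr-1(gk119)* the counts called lower were 0 of 6, 0 of 8, 2 of 8 and 2 of 10 in the same order. An unadjusted limma p under 0.05 was found there for 0 of the first 6 and 3 of the first 8, and for 6364 of the 19567 loci. The 2 Dicer and ERI calls there were 0 without *emr-1(gk119)* replicate 1 and 1 without replicate 2, wild-type replicate 1 or wild-type replicate 2, and the 2 piRNA calls were 1 without any of the 5 libraries. In *lem-2(tm1582)* limma called 0 of the 60 genes of all 6 lists. Of the 60, 6 had an unadjusted p under 0.05, where 3064 of the 19567 loci had, so the count is not above the share of all loci.

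**Figure D3:**
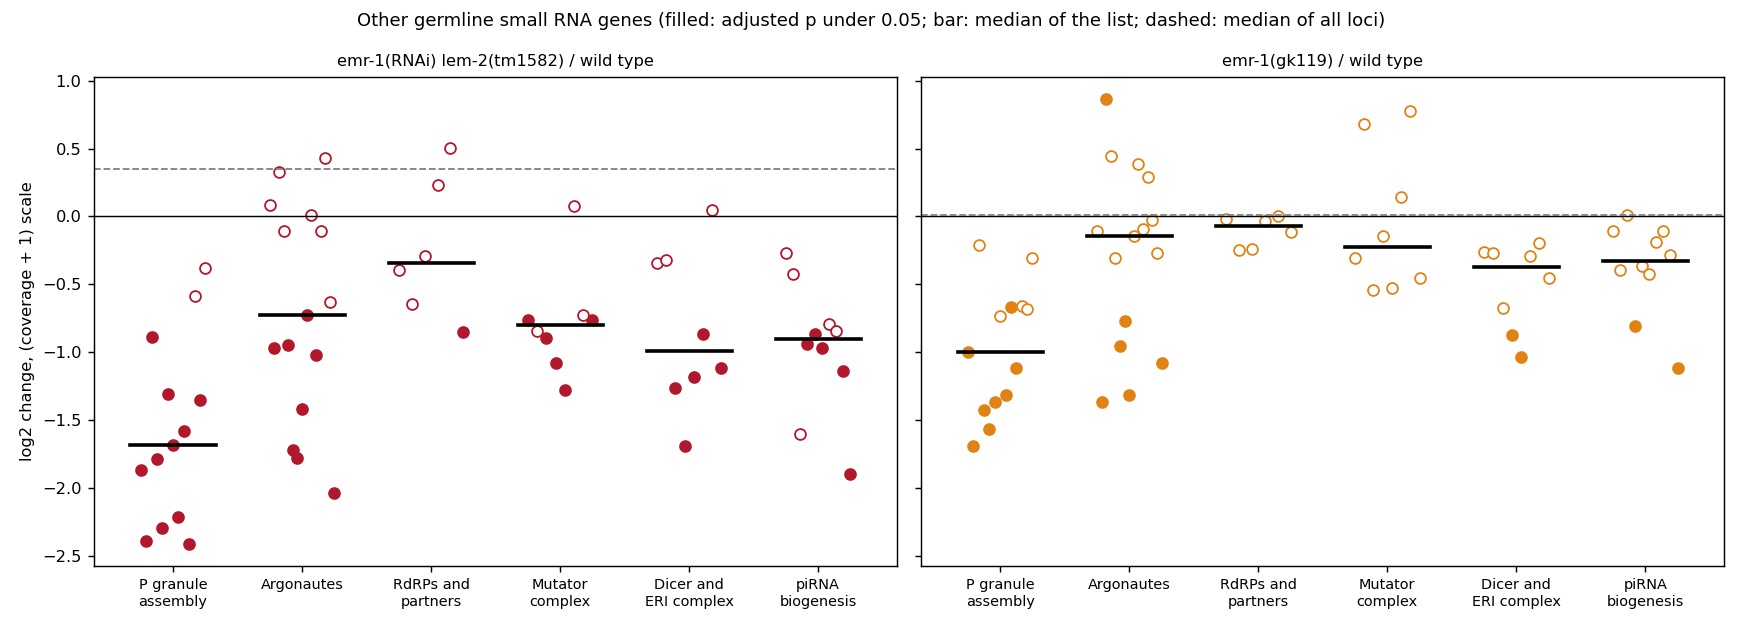
Change of each further gene of 6 lists on the log2(coverage + 1) scale, in the double libraries against wild type (left) and in emr-1(gk119) against wild type (right). Filled circles have a limma adjusted p under 0.05, black bars are the median of a list and the dashed line is the median of all loci. P granule assembly genes lie lowest in both panels, with medians of -1.68 and -1.0.

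Markers of germ cells and oocytes moved with these genes, and their part in the changes was not tested. All 9 oocyte markers were called lower in the double libraries (median -2.42), and 8 of 9 in *emr-1(gk119)* (median -0.99). Their summed coverage was 482 to 556 in the double, 1331 to 1332 in the *emr-1(gk119)*, 1870 to 2283 in the *lem-2(tm1582)* and 2692 to 2990 in the wild-type libraries, with no overlap between the groups. Of 10 germ cell markers, 7 were called lower in the double libraries (median -0.76) and 3 in *emr-1(gk119)* (median -0.39). Their sum was 275 to 315 in the double, 481 to 484 in the *emr-1(gk119)*, 544 to 690 in the *lem-2(tm1582)* and 669 to 742 in the wild-type libraries. Without double replicate 1 the germ cell count in the double libraries was 4, and in *emr-1(gk119)* the count was 1 without any 1 of the wild-type libraries, while the oocyte count there was 4 without *emr-1(gk119)* replicate 1 and 5 without replicate 2. A germ cell count of 1 of 10 in *emr-1(gk119)* is near the 6.27% of all loci called lower there. No germ cell or oocyte marker was at 0 in all libraries.

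The germ cell markers ran, for the double group against wild type, from -1.85 (*mex-3*) to -0.47 (*fbf-1*) and the oocyte markers from -2.68 (*puf-5*) to -1.52 (*chs-1*), so the 2 lists overlapped. *pgl-1* (-1.75) lay inside both ranges, and *pgl-3* (-2.27) and *deps-1* (-1.94) inside that of the oocyte markers alone. *glh-1* (-0.51) and *glh-2* (-0.41) had smaller changes than the median germ cell marker. The median over the 9 genes in each library, relative to the wild-type mean, was -0.87 and -1.07 in the double, -0.87 and -0.78 in the *emr-1(gk119)*, -0.21 and 0.00 in the *lem-2(tm1582)* and 0.12, 0.11 and -0.25 in the wild-type libraries. That of the germ cell markers was -0.89 and -0.80 in the double, -0.37 and -0.37 in the *emr-1(gk119)*, -0.24 and -0.08 in the *lem-2(tm1582)* and 0.02, 0.05 and -0.07 in the wild-type libraries. The 9 genes and the germ cell markers were therefore at like medians in the double libraries, and the 9 genes were lower in *emr-1(gk119)*, a difference that was not tested.

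In the double libraries, 0 markers of body wall muscle were called lower and 3 higher of 6, and for pharynx the counts were 0 and 4 of 5, for neurons 1 and 4 of 7, for intestine 0 and 1 of 6 and for the somatic gonad 1 and 1 of 5, where 12% of all loci were called lower and 26.4% higher. The shares called higher for intestine and somatic gonad are below that of all loci. Without double replicate 1 they were 0 and 0 for muscle, pharynx and somatic gonad and 0 and 1 for neurons. Of 8 sperm markers, 0 were called lower and 1 higher in the double libraries, *spe-26* (1.41), where 26.4% of all loci were called higher. Their sum was 317 to 351 in the double, 419 to 425 in the *emr-1(gk119)*, 454 to 473 in the *lem-2(tm1582)* and 230 to 286 in the wild-type libraries. Within the *emr-1(gk119)* sums, *spe-11* had 86.6 in replicate 1 and 3.0 in replicate 2. In *emr-1(gk119)* 3 sperm markers were called higher, where 10.3% of all loci were, and 1 without wild-type replicate 3. Of 6 hypodermis markers, 4 were called higher in the double libraries. Among them *dpy-7*, a cuticle collagen, had 76.9 and 61.2 in the double, 25 and 29.7 in the *emr-1(gk119)*, 14.9 and 16.7 in the *lem-2(tm1582)* and 4.17, 4.33 and 2.50 in the wild-type libraries, while *col-19*, a collagen of adults, was called lower (-0.95). Also called higher were *rol-6* (3.59), *dpy-10* (2.88) and *bli-1* (2.56), and *elt-3* (0.45) was not called. Some collagens differ between larval and adult stages, and these markers did not all move the same way. The part of developmental stage in the changes of the 9 genes was not tested.

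**Figure D4:**
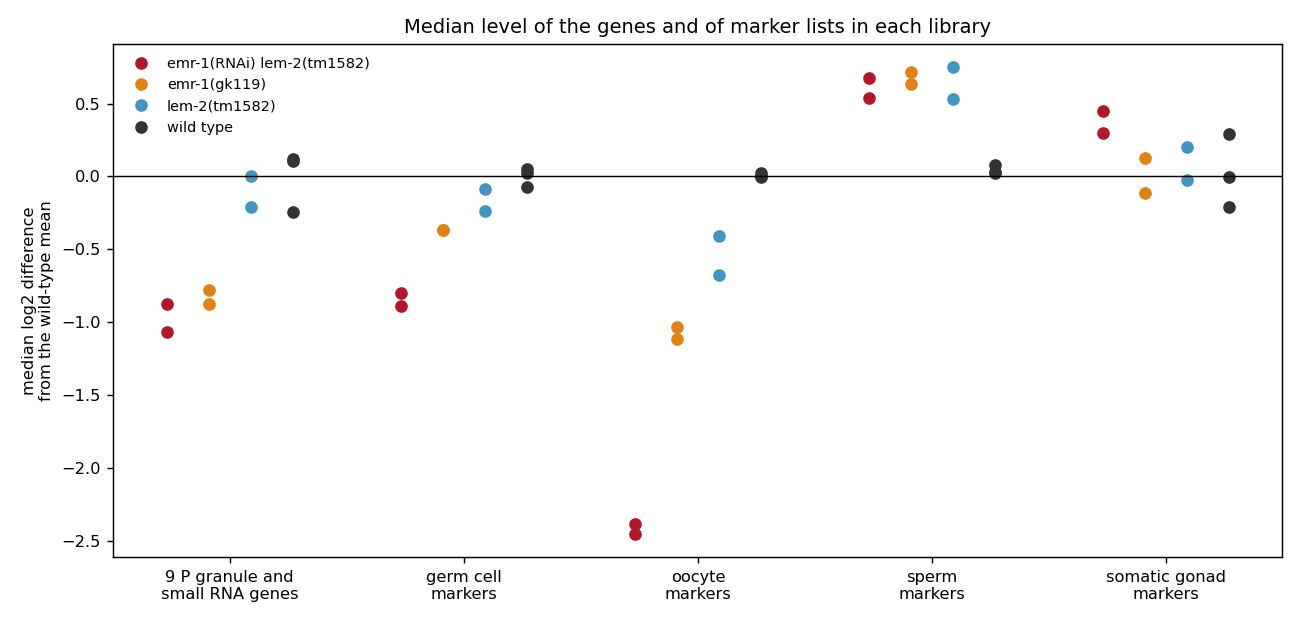
Median over the genes of a list of the log2(coverage + 1) difference from the wild-type mean, for each library, with the double libraries at the left and wild type at the right of each list. Points are libraries. The 9 P granule and small RNA genes lie near the germ cell markers in the double libraries, between -1.07 and -0.80, and the oocyte markers lie lowest, at -2.45 and -2.39.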

How the data were processed

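RNA-seq values of 9 whole-animal libraries were used. The authors aligned reads to WS231 with TopHat and read out per-base coverage by Samtools and Rsamtools. The deposited values are a coverage signal: exon medians were quantile-normalized between the 9 libraries, and each transcript was given the median of its exons. These are not counts, and the depth of each library is unknown, so precision was judged from replicates alone. Transcripts were averaged per locus (49395 transcripts, 43901 loci). Gene names and coordinates come from the Ensembl annotation of WBcel235, which matched 48951 transcripts, and no coordinate was converted from WS231.

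Groups are the genotypes that the labels give. All groups entered a single limma fit (version 3.58.1, R 4.3.3) of log2(coverage + 1) with a mean-variance trend, over the 19567 loci whose coverage averaged 1 or more. All 10 genes described passed that minimum. P-values are two-sided and adjusted by Benjamini-Hochberg over all loci in each of 6 comparisons, with 0.05 as the threshold. An exact permutation test of 2 against 3 libraries cannot go below p = 0.2, so none is given. The replicate number was left out as a block, since libraries of 1 number did not deviate together (r from -0.13 to 0.06).

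All genes of the selection are named, of each pathway list up to 4 with the smallest p in the double libraries against wild type, and the 5 loci with the most similar profile. Other genes were named after their values were seen. The genes and lists were chosen with earlier results of these data known. Of 124 list symbols, 122 were found. Some listed genes have close paralogs (*meg-3* and *meg-4*, *mut-14* and *smut-1*, *fbf-1* and *fbf-2*, and *prg-2* with *prg-1*), and their values are uncertain for the same reason as *glh-1* and *glh-2*. Other settings tried were a pseudocount of 0.1 or 5, a coverage minimum of 5 or none, single transcripts or the highest transcript of a locus, only the compared groups, no trend, a replicate block, repeated quantile normalization, no log scale, and each library left out in turn. Their use on the lists was chosen after seeing the data.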

Additional observations from a re-analysis of the deposited data

How the results depend on the processing

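In the double libraries against wild type, 4 to 6 of the 9 genes were called when 1 library was left out, and 3425 to 6783 of all loci (7518 with all libraries). In *emr-1(gk119)* against wild type 1 to 6 of the 9 and 1791 to 2503 loci were called (6 and 3252 with all libraries), in *lem-2(tm1582)* against wild type 0 and 1 to 14 (0 and 9), in the double libraries against *lem-2(tm1582)* 0 to 4 and 0 to 1052 (5 and 3221), in the double libraries against *emr-1(gk119)* 0 to 1 and 41 to 1609 (2 and 1891), and for the interaction 0 and 9 to 60 (0 and 87). With only the compared groups in the fit, 1 of the 9 genes and 826 loci were called in *emr-1(gk119)* against wild type, 23 loci in *lem-2(tm1582)* against wild type, 2 of the 9 and 1946 loci in the double libraries against *lem-2(tm1582)*, and 0 of the 9 and 0 loci in the double libraries against *emr-1(gk119)*. In the last comparison 1 of the 9 was called with a pseudocount of 0.1, with no minimum or with no trend, and 0 without the log scale. Without the log scale 2149 loci were called in *emr-1(gk119)* and 339 for the interaction.

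With the replicate block, 5 of the 9 genes were called against wild type for the double group, and 4 for *emr-1(gk119)*, while all loci called were 1424 for *emr-1(gk119)* and 1 for *lem-2(tm1582)* against wild type, 1131 in the double libraries against *emr-1(gk119)* and 14 for the interaction. The block also turned the sign of the interaction term of *prg-1*, to 0.0298 on the log2 scale, which was not called (limma, Benjamini-Hochberg adjusted p = 0.973). Loci called in *lem-2(tm1582)* were 46 with a pseudocount of 0.1, 88 with no minimum, 102 with a minimum of 5, 5 with no trend and 14 with repeated quantile normalization. For the interaction there were 136 with a pseudocount of 5, 460 with no minimum, 297 with a minimum of 5 and 258 with repeated quantile normalization. Repeated quantile normalization moved the median of all loci in the double libraries against wild type from 0.35 to -0.01. The causes of these shifts were not tested.

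Uncalled changes near 0 turned sign when 1 library was left out. The ranges were -0.92 to 0.21 for *ego-1* in *emr-1(gk119)* against wild type. In *lem-2(tm1582)* against wild type they were -0.0157 to 0.54 for *glh-1*, -0.18 to 0.067 for *glh-3*, -0.34 to 0.00634 for *glh-4*, -0.19 to 7.92e-04 for *csr-1*, -0.21 to 0.11 for *prg-1*, -0.39 to 0.24 for *ego-1* and -0.35 to 0.0373 for *pgl-3*. In the double libraries against *emr-1(gk119)* they were -0.0926 to 0.62 for *csr-1*, -0.32 to 0.0145 for *prg-1* and -0.90 to 0.23 for *ego-1*. For the interaction they were -0.32 to 0.0100 for *glh-2*, -0.80 to 0.00279 for *glh-3*, -0.0164 to 0.70 for *csr-1*, -0.27 to 0.0639 for *prg-1* and -0.82 to 0.31 for *ego-1*. Over all comparisons of the 10 genes, 862 single values kept their direction and call, 80 lost a call, 3 gained one and 25 turned sign.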
